A study of Mus musculus with 3 samples.

Results

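The 7 genes described here encode the cannabinoid receptor CB1, a protein that binds it, and the main enzymes that make and break down its ligands: Cnr1, Cnrip1, Dagla, Daglb, Napepld, Mgll and Faah. They were taken by symbol from a list of 28001 measured features, and all 7 were found once. The measurements are single-cell RNA counts from the nucleus accumbens, in 3 libraries of a single group. All animals were Thy1::ChR2 mice, which carry channelrhodopsin (ChR2) under the neuronal Thy1 promoter, and all cells came from FLiCRE labelling during optical stimulation of ChR2. FLiCRE is a tool that turns calcium coinciding with light into a reporter RNA, here read as the mCherry feature. Tissue was a coronal dissection of 400 um, and no unstimulated, unlabelled or other-genotype group was analysed here. The labels do not give the age, sex or number of mice behind a library, so p-values measure only the spread between these libraries.

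Endocannabinoids are lipid messengers that a cell makes on demand from its membrane and that act mainly on CB1, a receptor found largely on axon terminals. In the striatum, of which the accumbens is part, spiny projection neurons release 2-arachidonoylglycerol from their dendrites, and it travels back to quiet the terminals that contact them. The diacylglycerol lipases (Dagla, Daglb) make this lipid and monoacylglycerol lipase (Mgll) removes it, whereas Napepld and fatty acid amide hydrolase (Faah) make and remove the other main endocannabinoid, anandamide. Cnrip1 binds the intracellular tail of CB1. RNA sits mostly in cell bodies, so the receptor on terminals that arrive from other regions is not read by these libraries.

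Cells were sorted into classes by the number of distinct marker genes with a UMI, a molecular tag that lets 1 RNA molecule be counted once, and no gene of the 7 served as a marker. Of 11625 deposited cells, 9923 were kept: 2306, 5783 and 1834 in libraries 1 to 3. Their median depth was 986, 2094 and 2674 UMIs per cell. Pairs of libraries shared 13, 7 and 22 barcode sequences. The gates held 6655 cells (67.1%), and 3268 cells, of which 2174 had at least 3 neuron markers, stayed in no class. The classes were 1511 Drd1 and 1058 Adora2a spiny neurons, 148 glutamatergic neurons, 40 Pvalb and 36 Sst-Npy interneurons, 886 astrocytes, 1256 oligodendrocytes, 121 oligodendrocyte precursors, 482 microglia, 251 MHC class II macrophages, 84 T cells, 441 endothelial cells, 274 mural cells and 61 fibroblasts. Cholinergic neurons (2 cells) and Vip-Htr3a interneurons (4 cells) were too few to describe. In each of the 14 classes described, every marker of its own list present among the features had a UMI. Glutamatergic neurons are not a resident class of the accumbens, and their origin in the dissection is not given.

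Levels are CPM, the UMIs of a gene scaled to a total of 1000000 UMIs for that class in that library, and are given for libraries 1, 2 and 3 in that order, then as mean ± SD (n = 3). Differences between classes come from 1 edgeR quasi-likelihood fit on UMIs summed per library and class, with the library as block. It compared 9 classes with the mean of both spiny neuron types. Adjusted p-values are edgeR values with Benjamini-Hochberg adjustment over all 7694 genes tested, with a threshold of 0.05. A log2 fold change is on the scale of that fit, where the median of all genes ran from -1.04 in T cells to -0.01 in oligodendrocytes. Of the 7 genes, 4 (Cnr1, Cnrip1, Daglb and Mgll) passed its filter on low counts. Dagla, Napepld and Faah did not pass, and their tests come from the same fit run without the filter, over 18369 genes. Intervals are 95% intervals, and those of log2 fold changes include the spread between libraries. Where a class held 0 UMIs of a gene, a bound against 3 counts over the class replaces the fitted fold.

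The 7 genes lie on mouse chromosomes 4, 5, 6, 11 and 19 (GENCODE M21, build GRCm38, the mm10 sequence). Cnr1 spans chr4:33924593-33948831 on the plus strand, and Faah spans chr4:115967145-116017926 on the minus strand. Daglb spans chr5:143464584-143505942 on the plus strand, and Napepld spans chr5:21662901-21701396 on the minus strand. Mgll spans chr6:88724412-88828360 and Cnrip1 chr11:17051586-17079371, both on the plus strand. Dagla spans chr19:10245265-10304877 on the minus strand. The Daglb gene model ends inside an overlap of 2309 bases with Rac1 on the other strand, and the libraries read 3′ ends. Whether counting used strand is not given in the sources used here, so Rac1 levels stand beside those of Daglb. Cnrip1 overlaps the myeloid gene Plek over 796 bases at its 5′ end only, and Mgll overlaps the antisense gene Gm26588 over 1449 bases at its 5′ end.

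Shown here are upstream sequences of the 3 enzymes with their highest mean level outside neurons, each in a different class. Mgll was highest in astrocytes, where it overlapped oligodendrocyte precursors, Daglb in microglia and Napepld in endothelial cells. Each sequence is the 250 bases before the first start listed in a RefSeq table (GRCm38.p6), 5′ to 3′ along the gene, with capitals marking a motif match.
Mgll, chr6:88724162-88724411, plus strand: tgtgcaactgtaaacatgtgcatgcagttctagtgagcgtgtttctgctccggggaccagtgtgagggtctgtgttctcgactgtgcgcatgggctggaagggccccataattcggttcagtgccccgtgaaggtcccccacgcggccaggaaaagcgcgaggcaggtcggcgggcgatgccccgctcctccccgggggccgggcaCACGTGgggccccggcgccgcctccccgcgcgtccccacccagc
Daglb, chr5:143464243-143464492, plus strand: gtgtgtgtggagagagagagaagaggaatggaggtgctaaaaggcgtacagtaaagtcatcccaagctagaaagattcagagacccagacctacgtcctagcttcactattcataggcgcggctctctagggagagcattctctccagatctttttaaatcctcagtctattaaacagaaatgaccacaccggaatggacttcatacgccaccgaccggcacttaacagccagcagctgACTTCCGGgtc
Napepld, chr5:21701623-21701872, minus strand: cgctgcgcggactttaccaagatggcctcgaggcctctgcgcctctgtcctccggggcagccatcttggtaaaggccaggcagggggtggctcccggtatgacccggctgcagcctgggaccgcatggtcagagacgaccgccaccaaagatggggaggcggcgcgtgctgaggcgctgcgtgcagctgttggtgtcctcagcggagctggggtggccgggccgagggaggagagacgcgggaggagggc

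The table of upstream sequences holds 6 of the 7 genes, and Dagla is the gene without an entry. The Mgll window holds the E-box CACGTG, which is present in 6.02% of 32851 mouse windows of the same length. A second listed Mgll start, with a window of 40 CpG, held no match, so 1 of the 2 Mgll windows has the E-box. The Daglb window holds, on the reverse strand, the ETS motif CCGGAAGT, found in 2.88% of windows. Neither these motifs nor the TATA box TATAAA (12.4% of windows) or the cAMP response motif TGACGT (6.47%) occurred in the Napepld window, on either strand. The windows differed in base composition: the Mgll and Napepld windows held 23 and 21 CpG and were 68.0% and 69.6% G or C, against 9 CpG and 49.2% for Daglb. The median mouse window held 6 CpG at 52.4%. Cnr1 had 3 listed starts with 36, 28 and 5 CpG in this window, and 2.58% of all windows held 36 or more. 3′ reads do not say which start a cell used, so no level is tied to a window.

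Cnr1, the receptor, was a neuronal RNA, with its highest level in a rare class. The 40 Pvalb interneurons, inhibitory cells that contact spiny neurons, had 522, 478 and 851 CPM from 13, 36 and 21 UMIs, or 617 ± 204. Drd1 spiny neurons had 103, 75.4 and 55.7 CPM (78.0 ± 23.6) and Adora2a spiny neurons 27.7, 67.5 and 39.8 CPM (45.0 ± 20.4). Every Pvalb library lay above every spiny neuron library.

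Pvalb interneurons had fewer than 10 cells in library 3 and were therefore outside the joint fit. A fit chosen after seeing the data, which took classes with at least 5 cells in each library, gave Cnr1 a log2 fold change of 2.87 over spiny neurons (SE 0.34, interval 2.20 to 3.54, adjusted p = 1.29e-11). In that comparison 12.8% of 8333 genes were called. Without each library in turn the value ran from 2.58 to 3.15, and with the stricter gate it was 3.24. With DESeq2 it was 3.55. The 3 Pvalb cells with most Cnr1 held 19 of the 70 UMIs, and 51 UMIs remained without them.

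Mean shares of cells also placed Pvalb interneurons above spiny neurons. A Cnr1 UMI was present in 73.7% ± 23.5 of Pvalb interneurons (SD, n = 3) and in 11.9% ± 4.70 of spiny neurons. With each cell thinned to 1000 UMIs the shares were 45.2% ± 19.9 and 4.92% ± 1.74. Microglia, which should lack the gene, had a share of 0.629% ± 1.09 before thinning. By gate, 18 of the 40 Pvalb cells had a Pvalb UMI, 35 had Kit, 35 had Cox6a2, 39 had Gad1 and 0 had the excitatory marker Slc17a7.

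Of 73 kept cells with at least 3 Cnr1 UMIs, 11 were Pvalb interneurons (of 40), 20 were spiny neurons (of 2569) and 39 were in no class. No such cell was found among the gated astrocytes, oligodendrocytes, precursors, microglia, macrophages, T cells, endothelial cells, mural cells or fibroblasts. Spiny neurons nevertheless held most gated Cnr1 UMIs: 67.8% ± 11.1 of them, against 17.9% ± 10.9 for the Pvalb interneurons. These shares depend on how many cells were gated. Drd1 and Adora2a spiny neurons held 4307078 and 2890393 UMIs of all genes, against 124884 in Pvalb interneurons. Ungated cells, left out of the shares, held 479 Cnr1 UMIs, against 478 in spiny neurons.

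**Figure D1:**
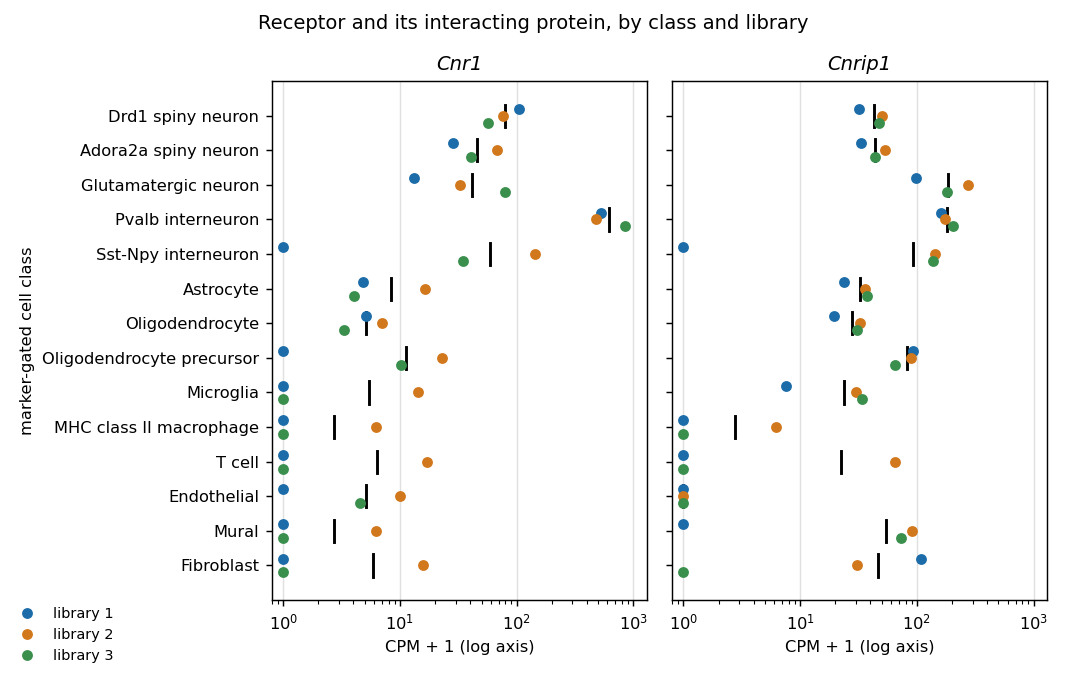
CPM plus 1 (log axis) of Cnr1 and Cnrip1 in 14 marker-gated classes. Points are the 3 libraries and bars their means. Cnr1 stood highest in Pvalb interneurons (478 to 851 CPM) and at most at 21.9 CPM in a library of a non-neuronal class. Cnrip1 was spread over neurons, oligodendrocyte precursors and glia.

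Other neurons did not separate from the spiny types in Cnr1. Glutamatergic neurons had 12.3, 31.5 and 78.1 CPM (40.6 ± 33.9), from 1, 9 and 17 UMIs. Their range enclosed most of the spiny values, and the log2 fold change was -0.42 (SE 0.41, interval -1.23 to 0.39, adjusted p = 0.602). Sst-Npy interneurons, with 36 cells, had 0, 142 and 33.8 CPM (log2 fold change 0.02, interval -1.13 to 1.16, in the fit with 5 cells, where 10.9% of genes were called). There 1 cell held 5 of the 10 Cnr1 UMIs, and 2 UMIs remained without the 3 highest cells.

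Outside neurons Cnr1 was low. It was lower than in spiny neurons in 8 of the 8 non-neuronal classes tested. Log2 fold changes ran from -2.32 in oligodendrocyte precursors (3 Cnr1 UMIs) to -4.29 in mural cells (1 UMI). Background shares for lower calls among all genes were 33.4% in astrocytes, 34.1% in oligodendrocytes, 23.7% in precursors, 34.4% in microglia, 32.2% in MHC class II macrophages, 28.9% in T cells, 33.5% in endothelial cells and 29% in mural cells. Astrocytes had 3.79, 15.5 and 3.04 CPM (log2 fold change -2.49, SE 0.42, adjusted p = 5.08e-07). Oligodendrocytes had 4.08, 5.97 and 2.35 CPM (log2 fold change -3.40, SE 0.45, adjusted p = 1.08e-09).

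The remaining counts in non-neuronal cells were set beside those of other neuronal RNA there. Over all gated non-neuronal cells, 36 of 47 Cnr1 UMIs were in library 2, at 10.4 CPM against 2.47 and 2.55 CPM in libraries 1 and 3. Astrocytes held 12.1% of the spiny neuron level of Cnr1, against a median of 9.22% (range 4.29% to 137%) for 8 neuronal yardstick genes such as Stmn2 and Celf4. In oligodendrocytes Cnr1 stood at 6.72% and the yardstick median at 7.66%. In microglia the values were 7.20% and 7.04%, and in endothelial cells 6.77% and 6.65%. The Cnr1 value was below the yardstick median in oligodendrocyte precursors (16.8% against 27.4%), MHC class II macrophages (2.83% against 8.66%), mural cells (2.84% against 5%) and fibroblasts (8.01% against 14.3%). T cells had 8.64% against 8.05%. These values rest on 3 Cnr1 UMIs in precursors and 1 each in MHC class II macrophages, mural cells, fibroblasts and T cells. Such counts are too few to place Cnr1 above or below the median. The call in oligodendrocyte precursors rests on libraries 2 and 3 (adjusted p = 0.0718 without library 2 and 0.0813 without library 3). The call in T cells was lost without each library in turn (adjusted p from 0.0949 to 0.184).

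Between the spiny types, Cnr1 was not called, although Drd1 neurons had the higher mean. Within each library the Drd1 value was above the Adora2a value in 3 of 3, at a log2 fold change of 0.62 (SE 0.36, interval -0.10 to 1.35, adjusted p = 1). In this contrast 0.481% of 7694 genes were called (37 with edgeR, 25 with DESeq2), and 0 of the 4 genes tested were among them, at 0 with an unadjusted p under 0.05. DESeq2 also called 0 of the 4. Intervals for Cnrip1 (-0.68 to 0.65), Daglb (-0.64 to 0.71) and Mgll (-0.64 to 0.69) spanned 0.

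Cnrip1, which binds the tail of CB1, had another order of classes than Cnr1. Its highest levels were in glutamatergic neurons, with 98.1, 273 and 179 CPM (183 ± 87.4), and in Pvalb interneurons, with 161, 173 and 203 CPM (179 ± 21.6). Drd1 spiny neurons had 30.8, 49.6 and 46.4 CPM and Adora2a spiny neurons 32.3, 52.8 and 42.7 CPM. All glutamatergic libraries lay above all spiny libraries.

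The difference passed the test in glutamatergic neurons (log2 fold change 2.07, SE 0.28, adjusted p = 3.71e-08), where 13% of genes were called in either direction. In Pvalb interneurons the value was 1.57 (SE 0.45, adjusted p = 0.00785) in the fit with 5 cells. That call was lost without library 2 (adjusted p = 0.128) and without library 3 (adjusted p = 0.0604).

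Glial classes lay on both sides of the spiny neuron level of Cnrip1, and none was called. Oligodendrocyte precursors had 92.5, 87.7 and 63.9 CPM (log2 fold change 0.58, interval -0.29 to 1.44, adjusted p = 0.309), above every spiny library, and a separate fit called them (0.95, adjusted p = 0.0348). Astrocytes had 22.8, 35.2 and 36.4 CPM, or 74.1% of the spiny level, and the log2 fold change was -0.02 (interval -0.63 to 0.58). Oligodendrocytes had 18.4, 31.6 and 29.7 CPM, or 62.6% of the spiny level (log2 fold change -0.22, adjusted p = 0.522), and DESeq2 called them lower (-0.55, adjusted p = 0.0387). Microglia had 6.64, 29.2 and 33.0 CPM, or 54.1% (log2 fold change -0.50, interval -1.32 to 0.32). Cnrip1 UMIs per Cnr1 UMI stood at 0.728 in spiny neurons, 0.314 in Pvalb interneurons and 4.63 in glutamatergic neurons, where the libraries gave 8, 8.67 and 2.29. The glutamatergic ratio was 8.60 without library 3 and 2.61 without library 2.

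Endothelial cells held 0 Cnrip1 UMIs in 441 cells and 811725 UMIs, which is at least 11.5-fold lower than the 42.4 CPM of spiny neurons (3 counts over the class, counting error only). MHC class II macrophages had 1 UMI in all (log2 fold change -3.60, SE 0.88, adjusted p = 0.000393). Mural cells, which share vessels with the endothelium, had 0, 89.0 and 71.9 CPM and were not called in the joint fit. They were called higher without library 1 (log2 fold change 1.04, adjusted p = 0.0225) and without doublet removal (0.85, adjusted p = 0.0461). A separate fit also called them higher (1.13, adjusted p = 0.00902). Plek, the overlapping neighbour, was at 205 ± 43.8 CPM in microglia, where Cnrip1 was at 23.0 ± 14.3 CPM.

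The 2 enzymes that make 2-arachidonoylglycerol had their highest levels in different classes. Dagla, the lipase known for retrograde signalling at synapses, was highest in spiny neurons: 46.2, 19.7 and 47.5 CPM in Drd1 cells (37.8 ± 15.7) and 50.8, 17.8 and 34.1 CPM in Adora2a cells (34.2 ± 16.5). Both types were lowest in library 2, and they did not separate (log2 fold change 0.21, interval -0.46 to 0.88, adjusted p = 1 without the filter, where 0.397% of genes were called). Glutamatergic neurons had 36.8, 10.5 and 18.4 CPM from 10 UMIs, which were not called against spiny neurons (log2 fold change -0.90, SE 0.50, adjusted p = 0.402, with 7.62% of genes called).

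Mean Dagla levels were lower in non-neuronal classes than in spiny neurons, but some rest on few UMIs. Oligodendrocyte precursors had 10.3 ± 11.0 CPM from 3 UMIs and were not called without the filter. Fibroblasts held 0 Dagla UMIs, with a bound of 3 counts at 26.8 CPM. Astrocytes kept 17.1, 12.4 and 15.2 CPM, or 40.8% of the spiny level, against the yardstick median of 9.22% given above, and the log2 fold change was -0.90 (SE 0.35, adjusted p = 0.0287 without the filter). With the filter off, 23.3% of genes were called lower in astrocytes and 25% in oligodendrocytes. Oligodendrocytes had 4.08, 1.71 and 2.35 CPM (log2 fold change -3.32, SE 0.48, adjusted p = 2.61e-11). Endothelial cells had 0, 5.95 and 3.58 CPM (log2 fold change -3.00, adjusted p = 2.13e-05), where 21.7% of genes were lower.

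Microglia, with 6.64, 5.31 and 11.0 CPM of Dagla from 5 UMIs, were also lower (log2 fold change -1.87, SE 0.60, adjusted p = 0.00659, 21.9% of genes lower). T cells and Sst-Npy interneurons held 0 Dagla UMIs, at 107926 and 106201 UMIs of depth, so their bounds lie at 27.8 and 28.2 CPM.

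**Figure D2:**
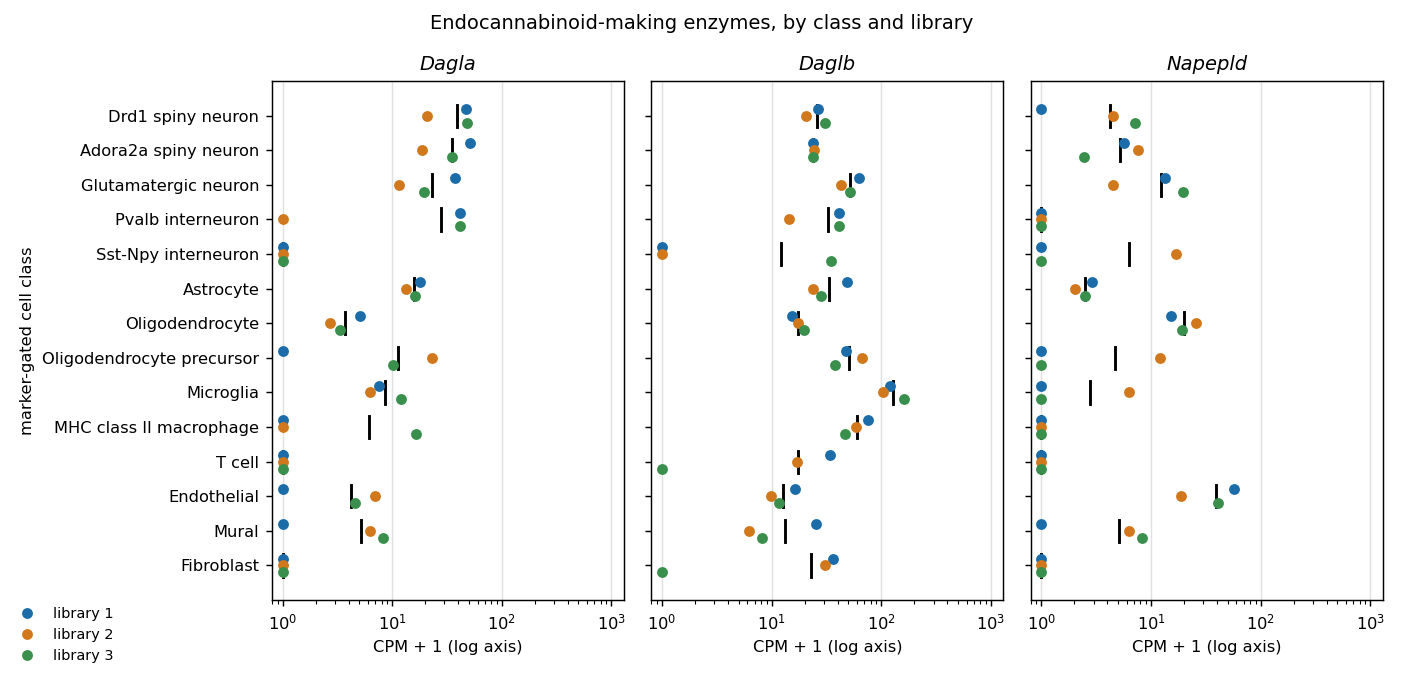
CPM plus 1 (log axis) of the 3 endocannabinoid-making enzymes in 14 marker-gated classes, with 1 point per library and bars at the mean. Dagla stood highest in the 2 spiny neuron types, Daglb in microglia (104 to 160 CPM) and Napepld in endothelial cells and oligodendrocytes.

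Daglb, the second lipase of this step, had its highest level in microglia, the resident macrophages of the brain: 119, 104 and 160 CPM (128 ± 28.9), from 18, 39 and 29 UMIs. MHC class II macrophages followed with 74.9, 57.4 and 46.1 CPM (59.5 ± 14.5). Drd1 and Adora2a spiny neurons had 25.01 ± 5.29 and 23.1 ± 0.295 CPM. Every microglial library lay above every library of the other 13 classes.

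Against spiny neurons the log2 fold change of Daglb was 2.74 in microglia (SE 0.28, interval 2.19 to 3.30, adjusted p = 2.37e-13), where 25% of genes were called higher. In MHC class II macrophages it was 1.73 (SE 0.38, adjusted p = 8.68e-05), with 21.6% of genes higher. Rac1, the overlapping gene, varied far less: 334 ± 62.6 CPM in microglia, 293 ± 74.1 in Drd1 and 299 ± 38.4 in Adora2a spiny neurons, and 263 ± 48.5 in MHC class II macrophages. A Daglb UMI was present in 16.7% ± 5.14 of microglia and 6.01% ± 2.93 of spiny neurons, or 8.02% ± 3.02 and 2.05% ± 0.621 at 1000 UMIs per cell. Microglia were not the highest class by share: glutamatergic neurons had 17.4% ± 6.35 at full depth, and MHC class II macrophages had 9.97% ± 6.95 after thinning.

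Among the other classes Daglb moved less. Astrocytes had 47.4, 22.8 and 27.3 CPM and a log2 fold change of 0.73 (SE 0.29, adjusted p = 0.0242, 29.8% of genes higher). This call was lost with DESeq2 (adjusted p = 0.0622), without the filter (0.187), without library 1 (0.186) and in cells of at least 1000 UMIs (0.0568). Glutamatergic neurons had 61.3, 42.0 and 50.6 CPM, above every spiny library, at a log2 fold change of 0.94 (SE 0.35, adjusted p = 0.0646), and DESeq2 called it (0.0203). Oligodendrocyte precursors had 46.3, 65.7 and 36.5 CPM (log2 fold change 0.88, interval -0.08 to 1.83).

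The balance of the 2 lipases therefore differed by class. UMIs of 2 genes were set against each other only to compare classes, since capture differs between genes and the values are not per length. Daglb per Dagla was 0.866 in spiny neurons (interval 0.698 to 1.07, counting error only) and 17.2 in microglia (7.09 to 54.3). The ratio lay between 14.5 and 19.5 in the 3 microglial libraries and between 0.5 and 1.10 in the spiny libraries. Oligodendrocytes stood at 7.14 (3.22 to 18.7), astrocytes at 2.10 (1.35 to 3.33) and glutamatergic neurons at 2.80 (1.32 to 6.46). The ratios of oligodendrocytes and microglia rest on 7 and 5 Dagla UMIs. In oligodendrocytes Dagla stood at 7.43% of the spiny level, against a yardstick median of 7.66%, and Daglb at 16.4 ± 2.25 CPM.

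Napepld, which releases anandamide and related lipids from a membrane precursor, was low in neurons. Drd1 spiny neurons had 0, 3.50 and 6.19 CPM and Adora2a spiny neurons 4.61, 6.60 and 1.42 CPM. Endothelial cells had 56.1, 17.8 and 39.3 CPM (37.8 ± 19.2, 28 UMIs) and oligodendrocytes 14.3, 24.8 and 18.0 CPM (19.0 ± 5.31, 59 UMIs). Both non-neuronal classes lay above all spiny libraries in each of the 3 libraries.

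Without the low-count filter, the log2 fold change of Napepld was 2.87 in endothelial cells (SE 0.49, adjusted p = 3.42e-08, 14% of genes higher) and 2.33 in oligodendrocytes (SE 0.40, adjusted p = 4.08e-08, 16.1% higher). Glutamatergic neurons had 12.3, 3.50 and 18.4 CPM from 6 UMIs and were not called (log2 fold change 1.03, adjusted p = 0.639). No UMI was found in MHC class II macrophages, T cells, fibroblasts or Pvalb interneurons. Their bounds of 3 counts lie at 7.69, 27.8, 26.8 and 24.0 CPM. These exceed the 3.77 CPM of spiny neurons, so the absence sets no fold bound.

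Of the enzymes that degrade endocannabinoids, Mgll had its highest mean levels in astrocytes and oligodendrocyte precursors. Astrocytes, the glia that wrap synapses, had 155, 156 and 307 CPM (206 ± 87.0, 435 UMIs). Oligodendrocyte precursors had 185, 197 and 155 CPM (179 ± 21.7, 39 UMIs), and the 2 classes overlapped. Drd1 spiny neurons had 87.4, 45.8 and 57.8 CPM (63.7 ± 21.4) and Adora2a spiny neurons 73.8, 56.3 and 44.1 CPM (58.1 ± 14.9).

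Mgll rose over spiny neurons in astrocytes (log2 fold change 2.20, SE 0.25, adjusted p = 2.85e-11, 29.8% of genes higher) and in oligodendrocyte precursors (1.45, SE 0.35, adjusted p = 0.000703, 14.9% higher). At 1000 UMIs per cell, 19.995% ± 7.27 of astrocytes and 5.60% ± 0.647 of spiny neurons had an Mgll UMI, and 37.0% ± 19.8 and 12.6% ± 3.01 before thinning. The share in microglia was 3.67% ± 2.09 at full depth.

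Mature oligodendrocytes went the other way, with 18.4, 12.8 and 24.2 CPM of Mgll (18.5 ± 5.72). Their log2 fold change was -1.20 (SE 0.32, adjusted p = 0.000907, 34.1% of genes lower), and it was not called without library 2 (adjusted p = 0.0551). Mgll was also lower in MHC class II macrophages, which had 2 UMIs in all (log2 fold change -2.97, SE 0.74, adjusted p = 0.000544). T cells held 0 Mgll UMIs, at least 2.18-fold lower than the 60.7 CPM of spiny neurons, a bound from 3 counts over the class. That call was lost without library 2 (adjusted p = 0.109).

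Mgll in glutamatergic neurons was uneven, at 85.8, 24.5 and 4.60 CPM from 7, 7 and 1 UMIs. The log2 fold change of -1.11 (SE 0.42, adjusted p = 0.0765) was not called, but it was called without library 1 (-1.76, adjusted p = 0.0184), with the stricter gate (-2.42, 0.0270) and without doublet removal (-1.20, 0.0452). Sst-Npy interneurons had 299, 31.6 and 102 CPM from 9 UMIs and Pvalb interneurons 80.3, 39.8 and 40.5 CPM from 6 UMIs, and neither was called in the fit with 5 cells.

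**Figure D3:**
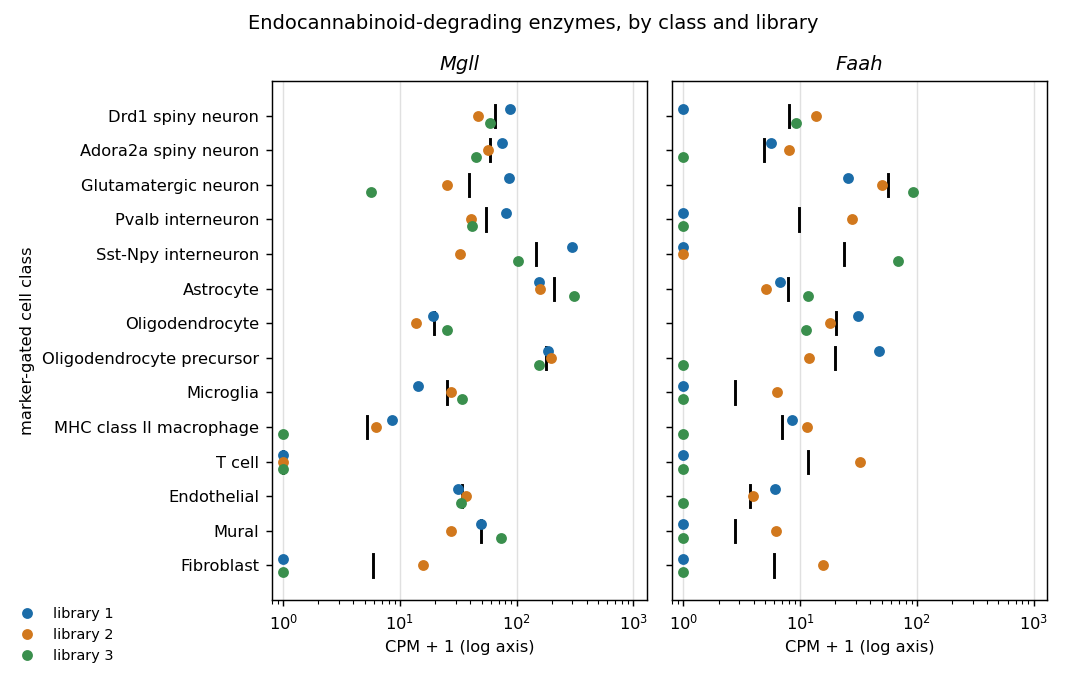
CPM plus 1 (log axis) of the degrading enzymes Mgll and Faah in 14 marker-gated classes, with 1 point per library and bars at the mean. Mgll stood highest in astrocytes and oligodendrocyte precursors (155 to 307 and 155 to 197 CPM), and Faah in glutamatergic neurons.

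Faah, the amidase that ends anandamide signalling, was sparse in spiny neurons, at 0, 12.7 and 8.26 CPM in Drd1 and 4.61, 7.10 and 0 CPM in Adora2a cells. Glutamatergic neurons had 24.5, 49.0 and 91.9 CPM (55.1 ± 34.1, 36 UMIs), and oligodendrocytes had 30.6, 17.1 and 10.2 CPM (19.3 ± 10.4, 48 UMIs). The glutamatergic libraries all exceeded the spiny libraries, whereas 1 oligodendrocyte library fell within the spiny range.

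Without the low-count filter Faah was higher in glutamatergic neurons (log2 fold change 2.99, SE 0.43, adjusted p = 3.42e-10, 4.15% of genes higher) and in oligodendrocytes (1.55, SE 0.39, adjusted p = 0.000317, 16.1% higher). It was not called between the spiny types (log2 fold change 1.05, interval 0.04 to 2.05, unadjusted p = 0.0413, adjusted p = 1). Astrocytes had 5.69, 4.14 and 10.6 CPM and were not called (log2 fold change 0.09, interval -0.92 to 1.09).

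Across the 36 pairs of a tested gene and a class, 19 were called against spiny neurons, 6 higher and 13 lower. Of the 13 lower calls, 8 belonged to Cnr1, and of the 6 higher calls, 3 belonged to Daglb and 2 to Mgll. The remaining higher call was Cnrip1 in glutamatergic neurons. Shares called in either direction among all genes were 63.2% in astrocytes, 63.8% in oligodendrocytes, 38.6% in precursors, 59.4% in microglia, 53.8% in MHC class II macrophages, 40.1% in T cells, 60.2% in endothelial cells and 51.8% in mural cells. With 4 genes tested per class, these counts are not set apart from those shares.

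**Figure D4:**
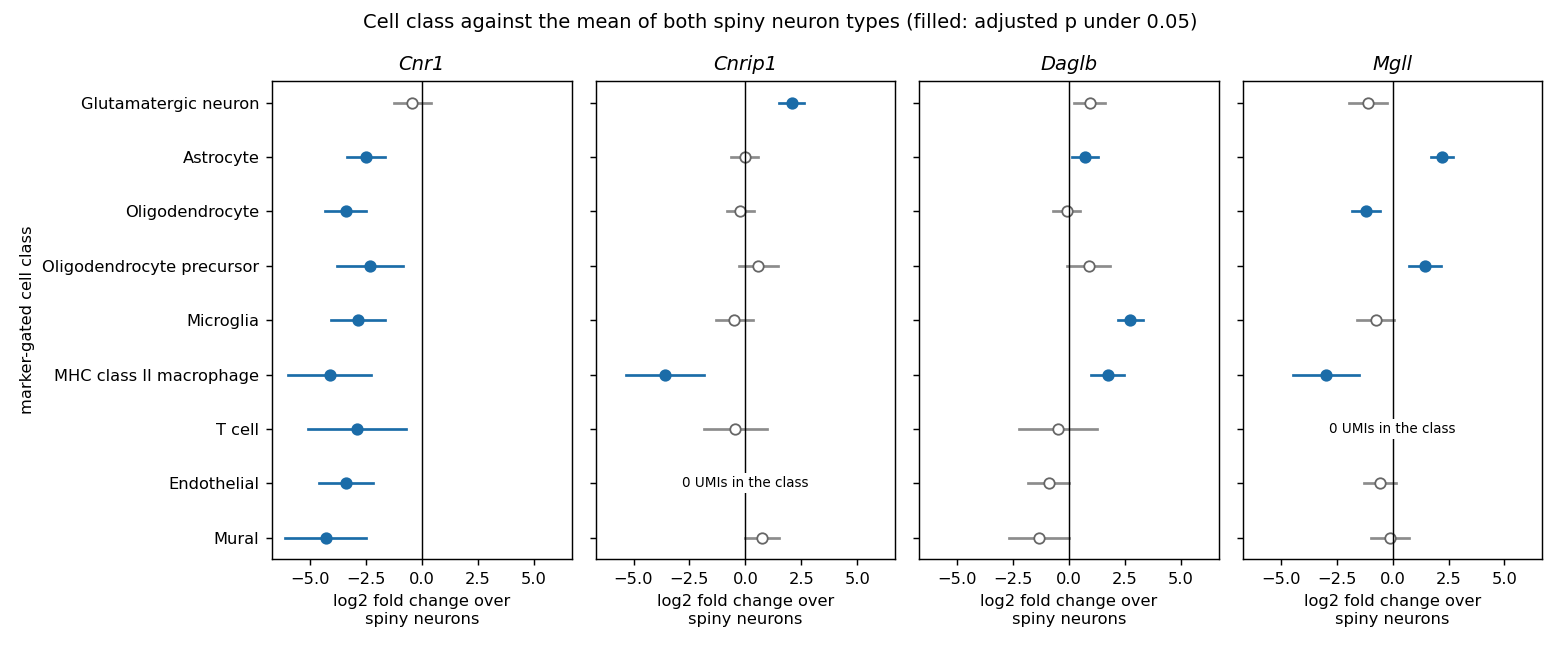
Log2 fold change over the mean of both spiny neuron types for the 4 genes that passed the low-count filter. Points are fitted values, lines 95% intervals, and filled points have an adjusted p under 0.05. Cnr1 lies left of 0 in all 8 non-neuronal classes shown, Daglb right of 0 in microglia (2.74), and Mgll right of 0 in astrocytes (2.20).

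Mgll, which removes the lipid that Dagla makes, was set against it in each class. Mgll per Dagla was 2.01 in spiny neurons (1.68 to 2.40, counting error only) and 14.0 in astrocytes (9.74 to 20.9). The spiny libraries stood at 1.65, 2.63 and 1.24 and the astrocyte libraries at 9.11, 12.6 and 20.2, with no overlap. Without library 2 the spiny ratio was 1.33. Glutamatergic neurons had 15 Mgll UMIs and 10 of Dagla, a ratio of 2.33 without library 3. Oligodendrocyte precursors had 13.0 (4.13 to 65.8), and 21 without library 2, where 1 Dagla UMI was left, and oligodendrocytes 7.86 (3.57 to 20.5), in classes where Dagla had 3 and 7 UMIs.

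For the anandamide pair, Faah per Napepld was 1.97 in spiny neurons (1.27 to 3.11, counting error only), and 1.125 without library 2. It was 0.0714 in endothelial cells (0.00825 to 0.283), 0.814 in oligodendrocytes and 6 in glutamatergic neurons (2.50 to 17.4). The glutamatergic and spiny intervals overlapped. Endothelial cells had 28 Napepld UMIs and 2 of Faah, and glutamatergic neurons 6 of Napepld and 36 of Faah. With so few Faah UMIs, the endothelial ratio was 0.0455 without library 2 and 0.118 without library 3.

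**Figure D5:**
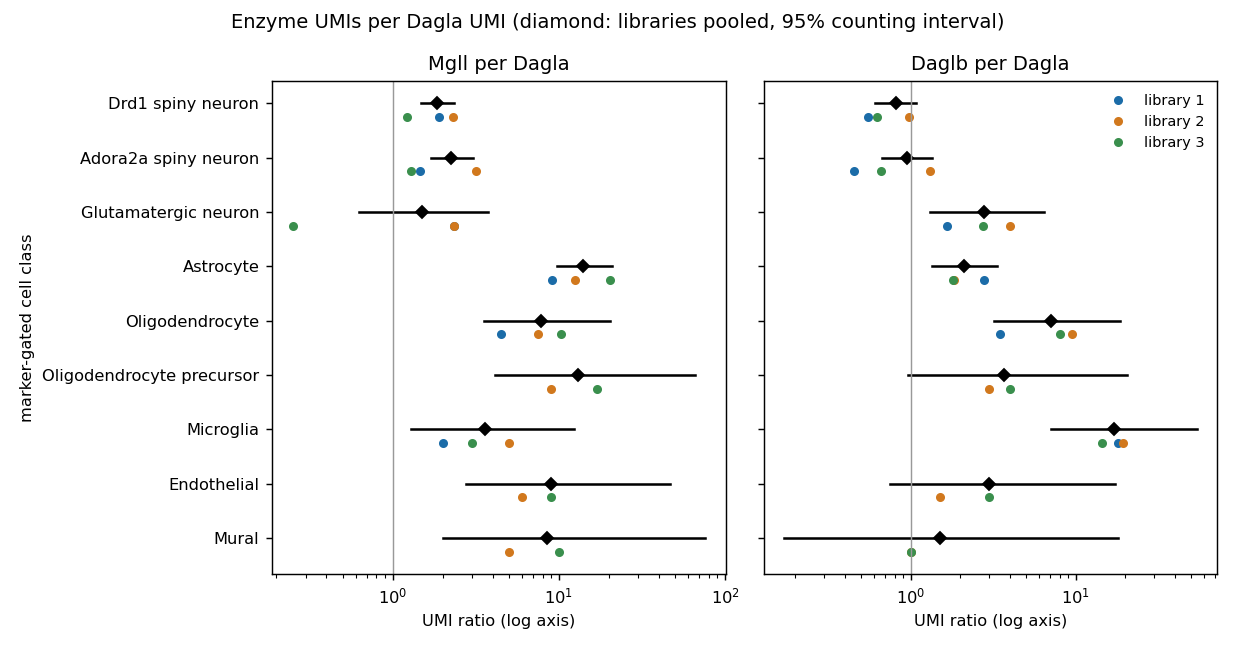
UMIs of Mgll and of Daglb per UMI of Dagla (log axes) in 9 classes. Diamonds pool the libraries, lines are 95% counting intervals, and coloured points are single libraries with UMIs of both genes. Mgll per Dagla was 14.0 in astrocytes and 2.01 over both spiny types, and Daglb per Dagla was 17.2 in microglia.

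Spiny neurons with at least 1 mCherry UMI (21, 372 and 66 cells) were compared with those without (290, 1400 and 420 cells), the readout of calcium with light in this design. The median UMI total was 1473, 3132 and 4383 in positive cells and 1276.5, 2570 and 2635.5 in negative cells, and the part of this depth gap in the values was not tested. Mgll stood at 0, 66.6 and 70.8 CPM in positive and 86.9, 44.4 and 47.7 CPM in negative cells, so it was higher in 2 of 3 libraries. Its log2 fold change was 0.51 (SE 0.21, adjusted p = 0.724, unadjusted p = 0.0294). Cnr1 stood at 63.0, 82.5 and 54.7 CPM in positive and 63.2, 69.0 and 47.7 CPM in negative cells (log2 fold change 0.25, interval -0.07 to 0.57, adjusted p = 0.747). Of the 5 genes tested, 0 were called, and 0% of all 8691 genes were called by edgeR (593 with an unadjusted p under 0.05) or DESeq2 (25 unadjusted).

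A list of 22 further genes of endocannabinoid signalling gave 13 that passed the filter. The counts are read against the share of all genes called in either direction. In astrocytes 4 were higher and 5 lower (63.2% of all genes called), and in oligodendrocytes 4 and 5 (63.8%). In microglia 5 were higher and 4 lower (59.4%), and in precursors 2 and 5 (38.6%). MHC class II macrophages had 3 higher and 6 lower (53.8%), endothelial cells 3 and 8 (60.2%) and mural cells 2 and 5 (51.8%). T cells had 0 higher and 7 lower (40.1%), and glutamatergic neurons 2 and 0 (13%). None was called between the spiny types (0.481%). The median log2 fold change of the 13 was -0.11 in astrocytes and -0.40 in microglia, against -0.07 and -0.33 over all genes.

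Sgip1, which slows CB1 internalisation, was at 193 ± 37.9 CPM in Drd1 spiny neurons and lower in 7 classes, by -1.35 in astrocytes and -5.37 in endothelial cells on the log2 scale. Gprasp1, which sorts CB1 for degradation, was at 310 ± 7.79 CPM there and lower in all 8 non-neuronal classes. Plcb1, a phospholipase that supplies the diacylglycerol used by Dagla, was at 338 ± 36.9 CPM in Adora2a spiny neurons and lower in the same 8. Plcb4 of the same family was instead higher in endothelial (log2 fold change 3.89), mural (2.96) and glutamatergic (2.04) classes.

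Among alternative hydrolases and synthetic routes, the highest levels were in microglia, astrocytes and glutamatergic neurons. Abhd12, a second hydrolase of 2-arachidonoylglycerol, was at 448 ± 62.2 CPM in microglia (log2 fold change 1.82, SE 0.23, adjusted p = 3.13e-10). Abhd6, another such hydrolase, reached 30.8 ± 14.9 CPM in astrocytes and did not pass the filter. Abhd4, on another route to anandamide, was at 324 ± 128 CPM in astrocytes (log2 fold change 5.16, SE 0.28, adjusted p = 2.06e-24). Gde1, Gdpd1 and Gdpd3, phosphodiesterases on such routes, reached 281, 64.2 and 37.4 CPM at most, the first 2 in glutamatergic neurons and the last in microglia.

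Naaa, an acid amidase for related lipids, was highest in MHC class II macrophages at 273 ± 160 CPM (log2 fold change 4.04) and was also higher in astrocytes (3.20). Ptgs2, which oxygenates endocannabinoids, was highest in endothelial cells at 81.5 ± 25.6 CPM (log2 fold change 3.58). The lipid carriers Fabp5 and Fabp7 peaked in oligodendrocytes (2139 ± 954 CPM) and precursors (2386 ± 804 CPM), and Fabp3 in glutamatergic neurons (126 ± 22.5 CPM). Gpr18, a lipid receptor, reached 38.7 ± 35.0 CPM in T cells from 4 UMIs. Cnr2, the second cannabinoid receptor, reached 5.22 CPM at most from 3 UMIs in MHC class II macrophages, and Trpv1, a channel that anandamide opens, had 0 UMIs in each of the 11 classes.

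Genes with the most similar profile over the 11 classes were listed from 7694 genes by Pearson's r of log2(CPM + 10) over class means. For Cnr1 they were Scg2 (0.981), Slc7a14 (0.980) and Ncdn (0.979), and for Dagla they were Klhl9 (0.981), Fbxl16 (0.974) and Rnf145 (0.972). For Mgll they were Abcd3 (0.973), Tceal8 (0.941) and Manea (0.939), and for Faah they were Hmgcs1 (0.908), Olfm1 (0.879) and Stmn1 (0.872). The 11 points share libraries and depth, so these values only describe the profiles.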

How the data were processed

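Per the labels, the chemistry was 10x Genomics 3′ v2. The authors deposited UMI counts with no normalization. Per the file headers, Cell Ranger 3.0.0 wrote the matrix. The submitters' processing notes name Cell Ranger 3.0 and mm10. The annotation release is not given in the sources used here. The 3 samples are 1 pooled matrix. The barcode suffix separates libraries, but which numbered replicate a suffix stands for is not stated.

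A cell was kept from 300 genes upward if mitochondrial UMIs did not exceed 20%, which left 10291. Scrublet (scanpy 1.11.5) marked 64 cells by its automatic threshold and 0 in library 2, so the highest scores were removed at 0.8% per 1000 cells instead: 44, 296 and 28 cells. A class needed 2 to 4 of its own markers, at least 3 of 6 neuron markers for neurons, and at most 2 for other cells. Marker minima were set from marker counts alone. Kept cells held 2789355, 14578665 and 6276639 UMIs, and intervals of ratios, counts and shares cover counting error only (exact Poisson or Clopper-Pearson, 95%).

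UMIs were summed per library and class, and 11 classes with at least 10 cells in each library were fitted with edgeR 4.0.16 in R 4.3.3 (quasi-likelihood, robust, TMM, filterByExpr, library as block, Benjamini-Hochberg at 0.05). SE was taken as log2 fold change over the root of the F statistic. The block follows from the design, since every class was measured in each library. Scripts were tested on simulated data. The members, gene lists, tests and prior were chosen with earlier results of these data known. The text names all 7 members, the listed genes of at least 20 CPM in some class, and the 3 genes most like each of Cnr1, Dagla, Mgll and Faah. Alternatives were DESeq2 1.42.0, no filter, each library left out, no block, the default prior, a stricter gate, no doublet removal, cells of at least 1000 UMIs and separate fits.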

Additional observations from a re-analysis of the deposited data

How the results depend on the processing

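The 19 calls of tested genes against spiny neurons became 30 without the low-count filter (9 higher, 21 lower), where all 7 genes were tested, and lay between 15 and 21 when 1 library was left out. DESeq2 gave 20, the stricter gate 16 and separate fits 27. The pairs of gene and class tested were not the same in every setting, so these counts do not measure calls lost or gained. They also lack the share of all genes called in each setting. In the main fit that share ran from 38.6% in oligodendrocyte precursors to 63.8% in oligodendrocytes among non-neuronal classes. Without the filter, 16.1% of genes were higher and 25% lower in oligodendrocytes, and 14% and 21.7% in endothelial cells. In the main fit, oligodendrocyte precursors held 1 higher and 1 lower call, and T cells 0 higher and 2 lower (38.6% and 40.1% of all genes called). The joint fit with the stricter gate did not test these classes. Without the replicate block, the library term, the count stayed at 19, no call of a tested gene changed, and both contrasts with 0 calls stayed at 0. Of the highest classes, 5 to 7 of 7 were kept in the alternatives, and 4 of 7 kept the class with the highest share of cells when cells were thinned to 1000 UMIs. Mgll was highest in oligodendrocyte precursors without library 3 and in cells of at least 1000 UMIs. Cnrip1 was highest in Pvalb interneurons without library 2 and with the stricter gate. Dagla was highest in Adora2a spiny neurons without library 3 and with the stricter gate. The joint fit with the stricter gate had no value for oligodendrocyte precursors or T cells, which fell under 10 cells in a library. Their stricter-gate levels still entered the ranking of classes. Of the single tests, 448 kept direction and side, 14 lost and 13 gained a call, and the cause was not tested.

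Where a sign changed, the value was called in neither setting, and the changed values lay between -0.16 and 0.37. Leaving out 1 library gave log2 fold changes from -1.50 to 0.070 for Cnr1 in glutamatergic neurons. For Cnrip1 they ran from -0.093 to 0.063 between spiny types, from 0.027 to 0.19 in astrocytes, from -6.15 to 0.019 in T cells and from -0.00044 to 0.071 by reporter. For Daglb they ran from -0.16 to 0.34 between spiny types, from -0.018 to 0.12 in oligodendrocytes, from -0.86 to 0.030 in T cells and from -0.19 to 0.0052 by reporter. For Mgll they ran from -0.12 to 0.30 between spiny types and from -0.65 to 0.37 in mural cells. The -6.15 of Cnrip1 in T cells has no reliable size: all 4 UMIs were in library 2, so none remained without it. In cells of at least 1000 UMIs, Cnrip1 was at 0.0081 between spiny types and 0.022 in astrocytes, Daglb at -0.019 and Mgll at -0.10 between spiny types, and Mgll at 0.10 in mural cells. Separate fits gave Cnrip1 0.13 in astrocytes, Daglb -0.069 between spiny types and 0.13 in oligodendrocytes, and Mgll -0.088 between spiny types and 0.25 in mural cells. The stricter gate gave Cnrip1 0.16 in astrocytes and -0.10 by reporter, and no doublet removal gave Daglb -0.0035 between spiny types. The fit with 5 cells gave Cnrip1 0.14 in astrocytes, Daglb 0.088 in oligodendrocytes and Mgll 0.045 in mural cells.

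Depth limits Napepld and Faah, with 32 and 63 UMIs in 2569 spiny neurons, and the interneuron classes of 36 and 40 cells.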

Other observations

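A single cell of library 2, in no class and chosen after its values were seen, held 58 Cnr1 UMIs of 11774, the most of any kept cell. It also had 17 Gad1, 16 Gad2, 22 Cck, 26 Cxcl14, 9 Reln and 6 Synpr UMIs, which are genes of inhibitory interneurons. It had 0 UMIs of Vip, Pvalb, Kit and Slc17a7, 3 of Cnrip1 and 0 of the other 5 genes. The ungated cells as a whole had 39.2, 69.7 and 41.8 CPM of Cnr1 (25, 388 and 66 UMIs). Of the 39 ungated cells with at least 3 Cnr1 UMIs, 31 had Gad1, 29 had Ppp1r1b, 15 had Kit and 13 had Slc17a7, and 11 had at least 2 markers of the Pvalb list.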
